A study of Mus musculus with 8 samples.

Results

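The 10 genes described here build and load the major histocompatibility complex (MHC) class I molecule: the heavy chains H2-K1, H2-D1, H2-Q7 and H2-T23, the light chain B2m, the peptide transporter subunits Tap1 and Tap2, the loading bridge Tapbp, the transcriptional activator Nlrc5 and the peptide trimmer Erap1. They were taken by symbol from a table of 24421 gene symbols, and all 10 were found. The RNA was that of sorted CD4+ T cells, set free from the knee by enzymatic digestion. The mice were males of 16 weeks with antigen induced arthritis, in which an antigen provokes inflammation of the joint in an immunised animal. There were 4 wild-type libraries and 4 of Slc7a5 knockout cells, which lack a transporter of large amino acids, and all 8 shared the arthritis, the sex, the age and the sort. How the gene was deleted, the mouse strain, the number of cells per library and whether each library came from its own animal are not stated in the labels, so p-values here measure spread between libraries that may be partly technical.

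MHC class I molecules show peptides from inside the cell to CD8 T cells and natural killer cells. A heavy chain pairs with beta-2 microglobulin in the endoplasmic reticulum, where tapasin, the product of Tapbp, holds it next to the TAP transporter until a fitting peptide is bound, and ERAP1 shortens peptides that are too long. Lymphocytes are among the cells with the most class I on their surface, and interferons and NLRC5 raise the transcription of these genes.

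The libraries held 18837650 to 36436923 counts, and 5221 to 10139 symbols had at least 1 count. Knockout replicate 4 stood apart, with 5221 symbols detected and 43.7% of the tested genes at 0, against 2.86% to 19.3% in the other libraries. For the targeted gene Slc7a5, wild-type libraries had 385, 194, 410 and 0 counts in replicate order and every knockout library had 0, so wild-type replicate 4 is not checked by the targeted gene. Cd3e, which encodes a CD3 chain of the T cell receptor complex, was present in every library, at 407 to 554 CPM in wild type and 330 to 382 CPM in knockout. Cd4 was at 373 to 570 CPM in wild type and at 344 to 427 CPM in knockout replicates 1 to 3, but at 1.78 CPM in knockout replicate 4. CPM are library-size-scaled counts after a correction for library composition.

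Of the 10 genes, 7 lie on mouse chromosome 17 within the MHC (GRCm38). In order they are Tapbp (33919478 to 33929290), H2-K1 (33996012 to 34000619), Tap1 (34187556 to 34197225), Tap2 (34204479 to 34216321), H2-D1 (35263094 to 35267497), H2-Q7 (35439140 to 35443773) and H2-T23 (36029977 to 36032701). B2m lies on chromosome 2 (122147687 to 122153082), Nlrc5 on chromosome 8 (94434335 to 94527272) and Erap1 on chromosome 13 (74639573 to 74693205).

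Sequences before annotated starts of H2-K1 and H2-D1 are shown because these closely related heavy chains had fitted differences of opposite sign, and that of B2m because its protein pairs with both. Each is the 250 bases before a RefSeq start (GRCm38.p6), 5′ to 3′ on the strand of the gene: chr17:34000348-34000597 on the minus strand for H2-K1 (the first listed of its 2 starts), chr17:35262844-35263093 on the plus strand for H2-D1 and chr2:122147437-122147686 on the plus strand for B2m. The RefSeq span of H2-K1 reaches to 34000619, so its window precedes the listed start but lies inside the annotated gene, while those of H2-D1 and B2m end where the gene begins. Capitals mark matches, on either strand, to the NF-kappaB core GGGATTCCC, the class I interferon response element GAAGTGAAA, the interferon regulatory factor core AANNGAAA, the CRE half-site TGACG and the CCAAT box CCAAT.
H2-K1: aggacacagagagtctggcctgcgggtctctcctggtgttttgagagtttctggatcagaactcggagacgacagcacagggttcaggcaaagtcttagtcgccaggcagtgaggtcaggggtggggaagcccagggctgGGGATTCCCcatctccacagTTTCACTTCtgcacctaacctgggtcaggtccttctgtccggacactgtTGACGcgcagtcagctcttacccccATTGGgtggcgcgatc
H2-D1: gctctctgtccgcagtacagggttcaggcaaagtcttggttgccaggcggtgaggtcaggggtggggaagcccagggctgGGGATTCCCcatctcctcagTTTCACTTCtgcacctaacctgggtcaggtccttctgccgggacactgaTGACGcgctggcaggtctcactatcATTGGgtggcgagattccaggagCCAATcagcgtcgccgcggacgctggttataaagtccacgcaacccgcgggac
B2m: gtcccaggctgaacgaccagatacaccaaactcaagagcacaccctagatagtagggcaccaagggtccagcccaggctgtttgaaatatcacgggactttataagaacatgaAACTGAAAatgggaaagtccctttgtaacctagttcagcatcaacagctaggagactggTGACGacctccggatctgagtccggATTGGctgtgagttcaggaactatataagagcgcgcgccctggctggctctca
Both heavy chain windows held the NF-kappaB core, the class I element and the CRE half-site in the same order, beginning 110, 90 and 41 bases before the start of H2-K1 and 170, 150 and 101 bases before that of H2-D1. The interferon regulatory factor core lies inside the class I element in both, and no other matches overlapped. Of the 32851 start-site windows of the same length in the table, 0.301% held the NF-kappaB core, 0.402% the class I element, 21.3% the interferon regulatory factor core, 17.8% the CRE half-site and 33.8% the CCAAT box. In an alignment of the H2-K1 and H2-D1 windows, 166 of 190 paired bases were identical (87.4%). The B2m window held the interferon regulatory factor core, the CRE half-site and the CCAAT box. A match is a description of the letters only.

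No gene passed the comparison of knockout with wild type. At an adjusted p under 0.05 edgeR's quasi-likelihood test called 0 of 8489 tested genes (0%), and of the 9 class I genes tested it called 0. H2-Q7 was removed as too scarce. At an unadjusted p under 0.05 there were 2 class I genes, H2-K1 with a higher and H2-D1 with a lower estimate in knockout, where 326 of all tested genes (3.84%) met that threshold and 167 (1.97%) met it with a lower estimate. DESeq2 called 387 of 10659 genes (3.63%), limma voom 9 of 8489 (0.106%) and limma voom with library quality weights 4 of 8489 (0.0471%), and 0 of these were class I genes of the 10. The estimates were lower in knockout for 6 and higher for 3 of the 9 genes, with a median log2 fold change of −0.38 beside −0.12 over all tested genes. In bulk RNA such as this, fewer cells of a type and less RNA per cell cannot be told apart.

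H2-K1 and H2-D1 are the classical heavy chains, the ones that present peptides to CD8 T cells. H2-K1 had 4663, 3158, 3921 and 4189 CPM in wild-type replicates 1 to 4, against 8243, 7158, 4182 and 5052 CPM in knockout replicates 1 to 4. Knockout replicates 1, 2 and 4 lay above every wild-type library, while replicate 3 lay inside the wild-type range. The means were 3983 ± 630 and 6159 ± 1868 CPM (SD, n = 4 each), a log2 fold change of 0.63 (SE 0.22) or 1.55-fold, which did not pass (edgeR adjusted p = 0.75).

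H2-D1 measured 1650, 1275, 1426 and 1644 CPM across wild type and 1094, 809, 928 and 1139 CPM across knockout. All 4 knockout libraries lay below all 4 wild-type libraries. Such separation toward lower values was seen for 2 of the 9 tested class I genes, H2-D1 and H2-T23, and for 392 of all tested genes (4.62%). Among the 2816 genes detected in every library at a mean of at least 50 CPM it was seen for 108 (3.84%). Separation toward higher values was seen for 0 of the 9 class I genes, for 1.52% of all tested genes and for 3.55% of the well-detected ones. The H2-D1 means were 1499 ± 182 and 993 ± 152 CPM (log2 fold change −0.59, SE 0.19, 1.51-fold lower, edgeR adjusted p = 0.619). Without knockout replicate 4, the library that stood apart, the log2 fold change was 0.70 for H2-K1 and −0.68 for H2-D1.

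**Figure D1:**
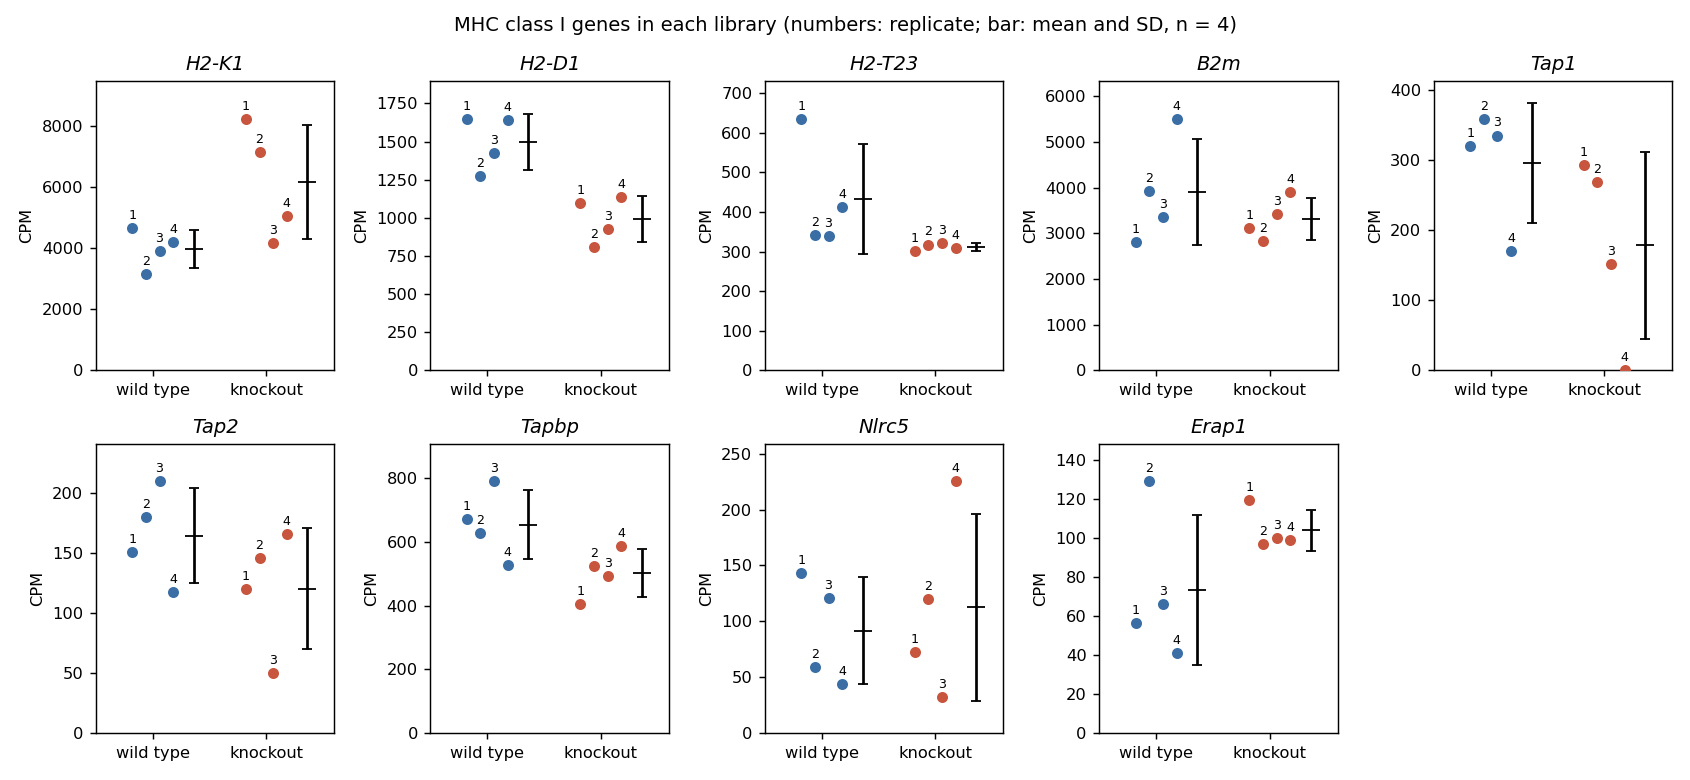
CPM of the 9 class I genes with counts in every library, 1 panel per gene, for wild type (blue) and knockout (red), with the replicate number above each point and the mean and SD (n = 4) as a black bar. In H2-D1 and H2-T23 every knockout point lies under every wild-type point, in H2-K1 3 of 4 knockout points lie over all wild-type points, and in Tap1 knockout replicate 4 lies at 0.0522 CPM.

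The share of H2-D1 relative to H2-K1 was lower in each knockout library than in any wild-type library, but the difference did not pass correction. A ratio within a library does not depend on how libraries are scaled. The count ratio of H2-D1 to H2-K1 was 0.354, 0.404, 0.364 and 0.393 in wild-type replicates 1 to 4 and 0.133, 0.113, 0.222 and 0.226 in knockout replicates 1 to 4. The wild-type libraries were close together and none overlapped with the knockout libraries, of which replicates 1 and 2 were lowest. H2-D1 alone was already lower without overlap, as were 3.84% of the well-detected genes. How often ratios of other gene pairs separate in this way was not counted. On the log2 scale the ratio was −1.40 ± 0.09 and −2.59 ± 0.51 (SD, n = 4 each), a difference of −1.19 (SE 0.26). The two-sided exact permutation p was 0.0286, the smallest that 4 against 4 libraries allow, and 0.114 after Benjamini-Hochberg adjustment over the 4 ratios compared, so it did not pass the correction. The difference ran from −1.34 to −1.01 when any 1 library was left out, and its sign could not turn because the groups did not overlap.

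The other 3 ratios overlapped between the genotypes. The heavy to light chain ratio of H2-K1 to B2m was 1.66, 0.804, 1.17 and 0.760 in wild type and 2.65, 2.53, 1.22 and 1.29 in knockout. Knockout replicates 1 and 2 were above all wild-type libraries, and replicates 3 and 4 were within their range (log2 difference 0.79, SE 0.40, exact permutation p = 0.114, adjusted 0.229, n = 4 each). The ratio of Tapbp to B2m was 0.239, 0.160, 0.235 and 0.0956 in wild type and 0.131, 0.185, 0.144 and 0.151 in knockout (log2 difference −0.18, SE 0.33, exact permutation p = 0.6, adjusted 0.8, n = 4 each). For the pair of transporter subunits, the ratio of Tap1 to Tap2 was 2.13, 1.999, 1.5996 and 1.45 in wild type and 2.45, 1.84, 3.02 and 0.000473 in knockout. Its log2 difference of −2.64 (SE 3.08, exact permutation p = 0.943, n = 4 each) rested on knockout replicate 4 and was 0.43 without it.

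**Figure D2:**
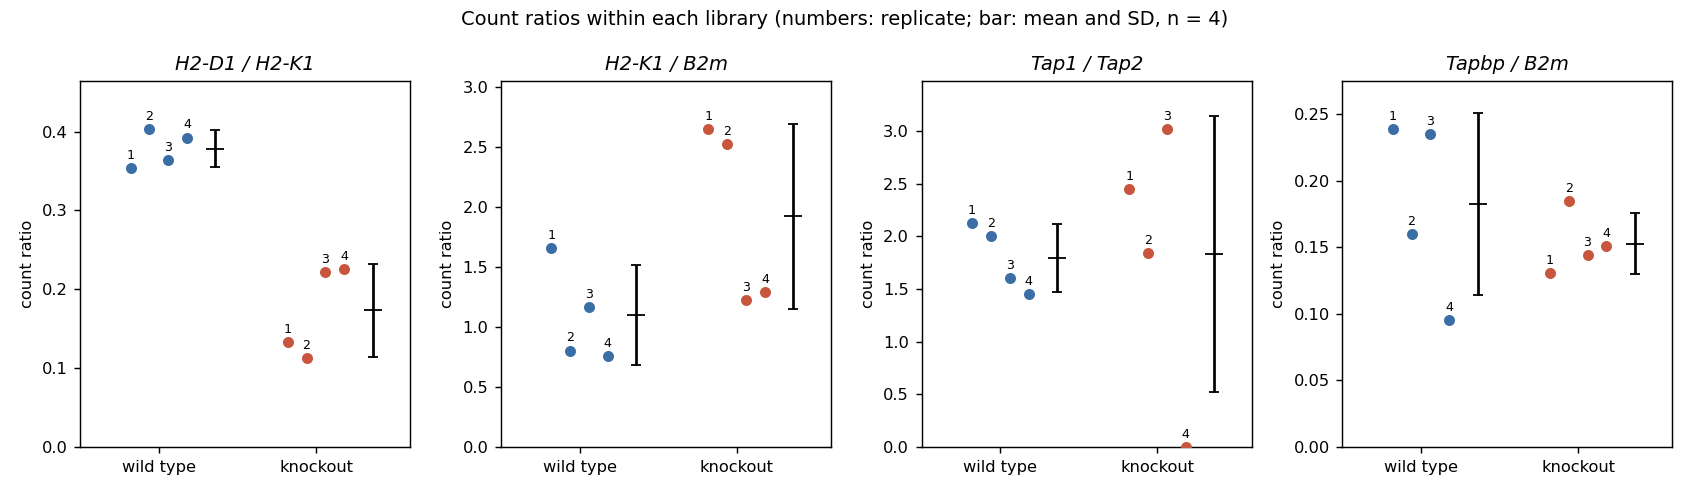
Count ratios of 4 gene pairs within each library, for wild type (blue) and knockout (red), with the replicate number above each point and the mean and SD (n = 4) as a black bar; 0.5 was added to each count. The H2-D1 to H2-K1 ratio is at 0.354 to 0.404 in wild type and at 0.113 to 0.226 in knockout, and the other 3 ratios overlap.

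The 3 libraries with the highest H2-K1, all knockout, were also the 3 with the highest sum of MHC class II transcripts, which abound in antigen-presenting cells. The 11 class II genes listed, among them the invariant chain Cd74 and the chains H2-Ab1 and H2-Aa, summed to 3050, 1333, 1213 and 1273 CPM in wild-type replicates 1 to 4. In knockout replicates 1 to 4 they summed to 8835, 10233, 1896 and 10996 CPM. Of the 9 tested, 8 had higher and 1 a lower estimate in knockout (median log2 fold change 2.20). edgeR called 0 of them, while DESeq2 called H2-Ab1 (log2 fold change 2.91, DESeq2 adjusted p = 0.0235) and gave Cd74 an adjusted p of 0.0517. Counts of called genes in this and the other lists are those of edgeR. Cd74 alone had 1969, 903, 881 and 934 CPM over the wild-type and 4636, 5926, 1434 and 7352 CPM over the knockout libraries. Knockout replicate 3, the knockout library with the lowest class II sum, was also the one with the lowest H2-K1, at 4182 CPM, and wild-type replicate 1 was the highest of its group in both. Knockout replicate 4, in contrast, had the highest class II sum and an H2-K1 level of 5052 CPM.

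Markers of antigen-presenting cells were low and uneven between libraries. Of the 8 B and plasma cell markers 5 were at 0 in every library, and the list summed to 0 to 19.8 CPM in wild type and 0 to 39.6 CPM in knockout. Cd79a, a chain of the B cell receptor complex, was at 0 in every wild-type library and at 0, 0.0556, 8.96 and 0 CPM in knockout. Its partner chain Cd79b ran from 0 to 8.12 CPM in wild type, against 0, 35.2, 30.6 and 0 CPM in knockout, and Mzb1, a plasma cell chaperone, was detected only in wild-type replicate 1, at 15.2 CPM. The 13 monocyte, macrophage and dendritic cell markers summed to 123 to 273 CPM in wild type and 111 to 323 CPM in knockout. Within that list, dendritic cell markers went in different directions. Itgax, an integrin, was at 0 in all knockout libraries and at 19.8 CPM in wild-type replicate 1. Xcr1, a chemokine receptor of cross-presenting dendritic cells, ran from 10.2 to 49.5 CPM in wild type, against 0.379, 101, 22.03 and 179 CPM in knockout. Clec9a ran from 0 to 0.528 CPM in wild type, against 0, 29.4, 17.4 and 0 CPM in knockout, and Flt3 from 0 to 12.7 CPM, against 53.3, 0, 0 and 0.783 CPM. Siglech ran from 5.87 to 113 CPM in wild type, against 1.52, 9.56, 175 and 0 CPM in knockout. In knockout replicate 4, where 43.7% of the tested genes were at 0, a marker at 0 cannot be read as absence of its cells. Lyz2, a lysozyme of myeloid cells, ran from 22.03 to 25.7 CPM in wild type, against 0, 0, 25.5 and 0.366 CPM in knockout. Csf1r, the macrophage growth factor receptor, was at 0 in all wild-type libraries and at 0, 44.3, 21.9 and 0.0522 CPM in knockout. Markers of CD8 T and natural killer cells summed to 0 to 57.7 CPM in wild type and 7.61 to 264 CPM in knockout. Cd8a was at 0 in every library but wild-type replicate 2 (7.15 CPM). Knockout replicate 4 had the highest Cd8b1, at 123 CPM against at most 20.3 CPM in wild type, and the highest Klrd1, at 141 CPM against at most 34.5 CPM, and the 2 tested members, Cd8b1 and Klrd1, both had higher estimates in knockout. The neutrophil list summed to 0 to 124 CPM in wild type and 0 to 133 CPM in knockout, and the synovial fibroblast and endothelial list to 50.6 to 223 and 0.0522 to 124 CPM. The 10 CD4 T cell markers summed to 8496 to 11908 CPM in wild type and 7719 to 9502 CPM in knockout. Of these, 9 had lower and 1 a higher estimate in knockout, and 0 were called. Their median log2 fold change was −0.29, beside −0.12 over all tested genes. Cd3e and Cd5 were lower without overlap between the groups, as were 4.62% of all tested genes and 3.84% of the well-detected ones. The part of other cell types in the H2-K1 level was not tested.

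**Figure D3:**
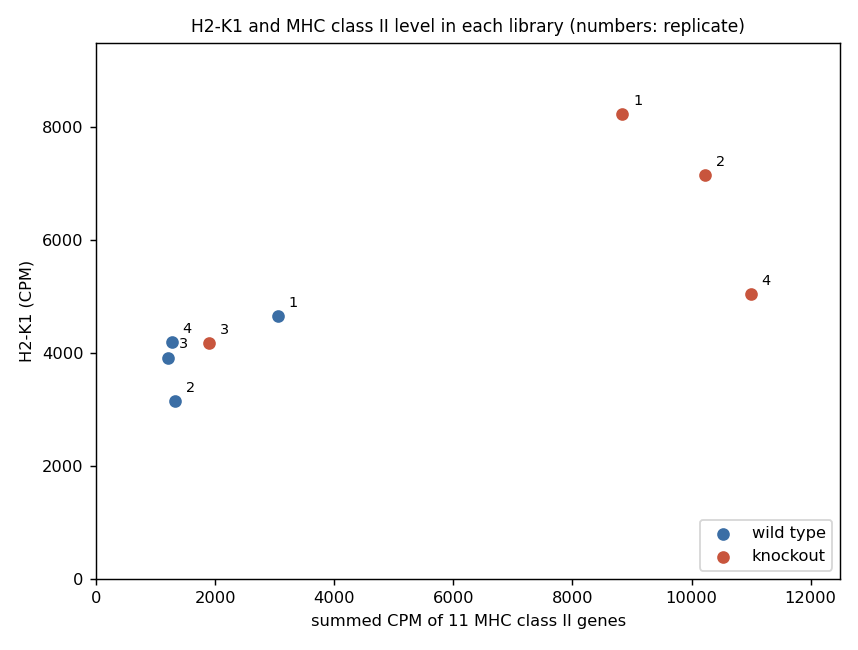
H2-K1 in CPM (vertical) against the summed CPM of 11 MHC class II genes (horizontal) in each library, wild type in blue and knockout in red, labelled by replicate. Knockout replicates 1, 2 and 4 lie to the right at 8835 to 10996 CPM of class II, and knockout replicate 3 lies with the wild-type libraries in both measures.

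The nonclassical heavy chain H2-T23 encodes Qa-1, which presents signal peptides of other class I chains to the CD94 and NKG2 receptors of natural killer cells. It measured 636, 342, 340 and 412 CPM across wild type and 300.4, 318, 321 and 308 CPM across knockout. The knockout libraries were close together and all lower than the wild-type ones, of which replicate 1 was far the highest (433 ± 139 and 312 ± 9.42 CPM, SD, n = 4 each). The log2 fold change was −0.47 (SE 0.27), and it did not pass (edgeR adjusted p = 0.9999). Without wild-type replicate 1 it was −0.23.

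H2-Q7, which encodes the Qa-2 antigen, had 1 count in wild-type replicate 2 and 0 counts in the other 7 libraries, so nothing can be said of its difference. The related genes H2-Q6 and H2-Q9 were at 0 in all libraries. Reads of near-identical copies may be lost or shared in counting, and the labels do not say how reads with several matches were treated. In the GENCODE transcript of H2-Q7, 16.4% of all windows of 100 bases occur exactly in a transcript of another gene, most often H2-Q6. That share was 0% for H2-K1, 4.64% for H2-D1 and 7.28% for H2-T23. At 50 bases it was 8.79% for H2-K1, 14.3% for H2-D1, 29.8% for H2-T23 and 34.9% for H2-Q7. Here and below, other transcripts were searched on both strands, so the shares can include antisense matches.

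B2m, the invariant light chain, had 2808, 3928, 3358 and 5509 CPM over the wild-type and 3106, 2833, 3422 and 3902 CPM over the knockout libraries. The genotypes overlapped, and the highest library was wild-type replicate 4 (3901 ± 1166 and 3316 ± 459 CPM, SD, n = 4 each). The log2 fold change was −0.23 (SE 0.21, edgeR adjusted p = 0.9999), and −0.02 without wild-type replicate 4.

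Of the genes that load peptides, Tapbp measured 671, 627, 790 and 527 CPM across wild type and 406, 524, 493 and 588 CPM across knockout. Knockout replicates 1, 2 and 3 lay under all wild-type libraries, and replicate 4 lay within their range. The means were 654 ± 109 and 503 ± 75.6 CPM (SD, n = 4 each; log2 fold change −0.38, SE 0.22, edgeR adjusted p = 0.9999). Of the windows of 100 bases in its transcript, 13.9% also occur in the overlapping gene Gm19412.

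Tap1 had 320, 359, 335 and 170 CPM over the wild-type and 293, 268, 152 and 0.0522 CPM over the knockout libraries. The last value is a single count in knockout replicate 4, the library with the fewest genes. Psmb9 is an immunoproteasome subunit whose gene lies 225 bases from the start of Tap1 on the other strand. It was at 260 CPM in that library, the highest of the 8. Of the 100-base windows of the Tap1 transcript, 3.96% occur in a Psmb9 transcript, with both strands searched. The log2 fold change of Tap1 was −0.73 (SE 1.23, edgeR adjusted p = 0.9999), and −0.33 without that library. Tap2 measured 150, 179, 209 and 117 CPM across wild type and 120, 146, 50.1 and 166 CPM across knockout. It was lowest in knockout replicate 3, with the other knockout libraries inside the wild-type range (log2 fold change −0.45, SE 0.47, edgeR adjusted p = 0.9999).

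Erap1, the trimming peptidase, had 56.6, 129, 66.4 and 41.2 CPM over the wild-type and 120, 97.2, 100.3 and 99.2 CPM over the knockout libraries. The knockout libraries lay above 3 wild-type libraries and below wild-type replicate 2 (73.3 ± 38.6 and 104 ± 10.5 CPM, SD, n = 4 each). The log2 fold change was 0.51 (SE 0.64, edgeR adjusted p = 0.9999), and 0.90 without wild-type replicate 2. Part of its transcript is shared with the overlapping gene Cast, at 13.3% of windows of 100 bases with both strands searched. Nlrc5, the activator of class I promoters, measured 144, 59.1, 120 and 43.7 CPM across wild type and 72.6, 120, 31.7 and 225 CPM across knockout. Its highest value was that of knockout replicate 4, and the sign of its log2 fold change, 0.29 (SE 0.71, edgeR adjusted p = 0.9999), turned without that library (−0.31).

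**Figure D4:**
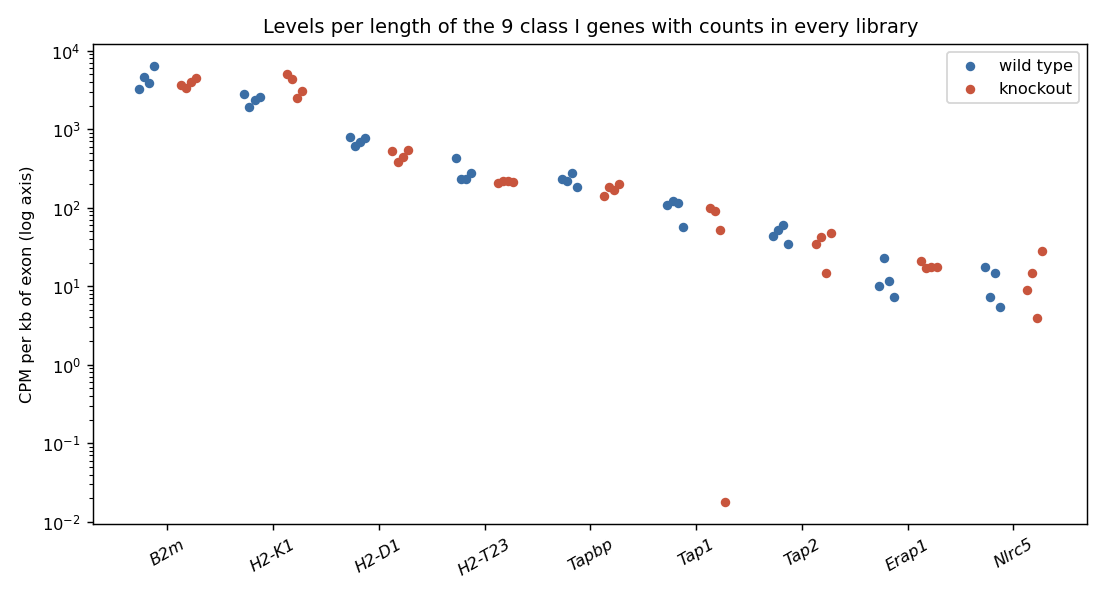
Level per length, in CPM per kilobase of exon on a log axis, of the 9 class I genes with counts in every library, ordered by their wild-type mean, for wild type (blue) and knockout (red). B2m and H2-K1 are highest in both genotypes, and the single low point is Tap1 in knockout replicate 4.

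Per length of exon, B2m was the most abundant of the genes in wild type, at 4536 ± 1355 CPM per kilobase, followed by H2-K1 at 2406 ± 380, H2-D1 at 713 ± 86.7, H2-T23 at 294 ± 94.8 and Tapbp at 226 ± 37.6 CPM per kilobase (SD, n = 4). Tap1 at 100.2 ± 29.0, Tap2 at 47.7 ± 11.5, Erap1 at 13 ± 6.85 and Nlrc5 at 11.3 ± 5.90 CPM per kilobase came next. The wild-type libraries of neighbours in that order overlapped for H2-T23 and Tapbp, for Tap1 and Tap2 and for Erap1 and Nlrc5. In knockout the order was the same, with H2-K1 at 3721 ± 1129 CPM per kilobase overlapping B2m at 3855 ± 534. H2-T23 no longer overlapped Tapbp there, and overlaps linked Tap1 with Tap2, Tap2 with Erap1 and Erap1 with Nlrc5.

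Several estimates turned sign when the fit allowed for the GC content of the transcripts. H2-K1, H2-D1, H2-T23, Tap1, Tap2 and Tapbp have transcripts of 53.9% to 57.3% GC, against a median of 49.4% over tested genes, while B2m and Erap1 are at 41.2% and 41.5%. With an offset for GC content in each library, the log2 fold change of H2-K1 was 1.37 (SE 0.32, edgeR unadjusted p = 0.000900, adjusted 0.631) and that of H2-D1 was 0.22 (SE 0.38). H2-T23 was then at 0.24, Tap2 at 0.49 and Tapbp at 0.50, all turned in sign, and Nlrc5 was at 1.32. B2m and Erap1 moved by 0.18 and 0.14 only. The median over all tested genes moved from −0.12 to 0.16, so the directions of the GC-rich class I genes are not settled by these data. The estimate of H2-K1 stayed positive but did not pass with or without the offset. The gap between H2-D1 and H2-K1, whose GC contents are 55.9% and 56.3%, was −1.22 on the log2 scale without the offset and −1.16 with it. Genes of near-equal GC content get near-equal offsets, so this fit could hardly change the gap and is no check of it.

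**Figure D5:**
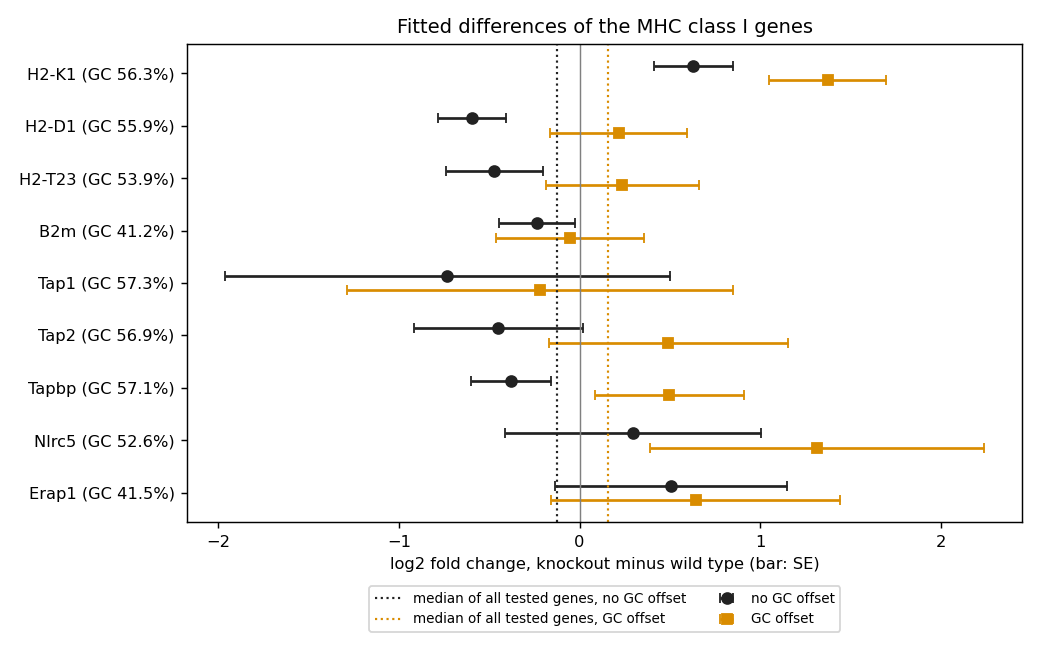
Log2 fold change, knockout minus wild type, with its SE for the 9 tested class I genes, from the fit without (black circles) and with (orange squares) an offset for GC content; dotted lines are the medians over all tested genes, −0.12 and 0.16. H2-D1, H2-T23, Tap2 and Tapbp change sides of 0, and H2-K1 stays to the right at 0.63 and 1.37.

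The 8 libraries were also used to ask which class I genes had like patterns, by the root mean square difference between their log2 CPM, each centred on its own mean. The closest were H2-D1 and H2-T23 (0.27), H2-D1 and Tapbp (0.31) and H2-T23 and Tapbp (0.34). H2-K1 was 0.67 from H2-D1 and nearest to Erap1, at 0.60. The other genes closest to the mean pattern of the 9 genes were Ssbp3 (0.16), Rpl15 (0.18), Mrfap1 (0.18) and Nfkbib (0.18), of 2807 candidates detected in every library at a mean of at least 50 CPM. That mean pattern leaned on the single count of Tap1. Without Tap1 the 4 closest included Zbed5 (0.13), Sf3b5 (0.13) and Rps9 (0.17), and 0 of the 4 were shared.

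Other heavy chains and class I-like molecules were far below H2-K1. Of the 24 listed, 12 were tested, with 6 higher and 6 lower estimates, a median log2 fold change of 0.09 beside −0.12 over all genes, and 0 called. The most abundant were H2-M3, which presents formylated peptides, at 90.0 ± 25.8 and 117 ± 65.1 CPM, H2-T10 at 48.2 ± 22.6 and 113 ± 52.1 CPM and the lipid presenter Cd1d1 at 54.0 ± 31.9 and 75.0 ± 47.9 CPM (wild type and knockout, SD, n = 4 each). H2-T10 had the widest gap of the 3 (log2 fold change 1.23, SE 0.74). Its near copy H2-T22 had 1 count in all, and 11.8% of the 100-base windows of H2-T10 occur in H2-T22, so the counts of this pair are uncertain.

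Of the chaperones and enzymes that fold class I chains, 8 were tested, with 3 higher and 5 lower estimates (median −0.03) and 0 called. Canx, calnexin, was at 2255 ± 624 and 2965 ± 1385 CPM, Hspa5, the chaperone BiP, at 1874 ± 494 and 2439 ± 704 CPM, and Pdia3, the disulfide isomerase of the loading complex, at 710 ± 225 and 691 ± 164 CPM (SD, n = 4 each). Of the other peptide-trimming and peptide-handling enzymes, 5 were tested, with 1 higher and 4 lower estimates (median −0.48) and 0 called. H13, signal peptide peptidase, had 297, 226, 279 and 244 CPM over the wild-type and 198, 185, 205 and 59.3 CPM over the knockout libraries, without overlap between the groups, as for 4.62% of all tested genes (log2 fold change −0.69, SE 0.40, edgeR adjusted p = 0.9999). Tpp2 was at 200 ± 123 and 143 ± 74.6 CPM and Npepps at 56.6 ± 27.9 and 105 ± 64.0 CPM.

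Immunoproteasome subunits, which cut proteins into peptides fit for class I, included Psmb8, whose gene lies between Tap1 and Tap2. It measured 1167, 1051, 1024 and 925 CPM across wild type and 857, 867, 839 and 796 CPM across knockout. All knockout libraries were lower than all wild-type libraries (log2 fold change −0.31, SE 0.18, edgeR adjusted p = 0.9999; 0.45 with the GC offset). Psme2, a subunit of the PA28 activator, was at 649 ± 37.5 and 571 ± 109 CPM and Pomp, an assembly factor, at 484 ± 49.96 and 644 ± 154 CPM. Of the 6 tested, 2 had higher and 4 lower estimates (median −0.14), 0 were called and 2 were lower without overlap between the groups, where 4.62% of all tested genes and 3.84% of the well-detected ones were. The other one, picked after its values were seen, was Psmb10, at 176, 240, 240 and 297 CPM in wild type and 46.9, 121, 151 and 117 CPM in knockout cells (log2 fold change −1.13, SE 0.42).

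Among 16 transcription factors of class I promoters, 5 had higher and 11 lower estimates (median −0.31) and 0 were called. Irf2, an interferon regulatory factor, was at 148 ± 92.6 and 234 ± 234 CPM. Nfyb, a subunit of the factor that binds CCAAT boxes, averaged 84.5 ± 36.3 CPM in wild type, beside 53.6, 108, 116 and 604 CPM in knockout, so its estimate (log2 fold change 1.38, SE 0.71) followed knockout replicate 4. Nfkb1, the p50 precursor of NF-kappaB, is named after its values were seen. It had 229, 123, 273 and 175 CPM over the wild-type and 62.4, 18.5, 83.0 and 0.366 CPM over the knockout libraries, the only one of the 16 without overlap, beside 4.62% of all tested genes (log2 fold change −2.28, SE 1.04, edgeR adjusted p = 0.9999).

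Interferon-stimulated genes, which share their inducers with class I, had 7 higher and 8 lower estimates of 15 tested (median −0.07) and 0 called. Igtp, an interferon-induced GTPase, was at 952 ± 146 and 673 ± 258 CPM, and Gbp7, a guanylate-binding protein, at 452 ± 127 and 672 ± 327 CPM (SD, n = 4 each). Of the genes that control class I at the cell surface, 3 were tested, with 1 higher and 2 lower estimates and 0 called. Wwp2, a ubiquitin ligase, was at 114 ± 31.8 and 107 ± 44.6 CPM, while Susd6 and Sppl3 were scarce, at 29.6 ± 23.2 and 12.6 ± 20.9 CPM and at 11.4 ± 14.6 and 17.99 ± 25.3 CPM.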

How the data were processed

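RNA was measured in 8 libraries, 4 per genotype. The deposited table gives each symbol's raw counts as whole numbers, which the authors had not scaled, as the values show. Per the submitters' processing notes, the tools were HISAT2 2.1.0, featureCounts and edgeR 3.28.1 and the build mm10. The sources used here give no annotation, strand setting or handling of reads with several matches, so antisense or overlapping partners cannot be told apart. Libraries were made with a low-input amplification kit, per the labels' protocols.

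The counts were filtered in R 4.3.3 (filterByExpr, edgeR 4.0.16, minimum count 10 and minimum total 15) and TMM-scaled, leaving 8489 genes. Genotype alone entered a robust quasi-likelihood fit, with p-values adjusted by Benjamini-Hochberg, and each SE was the log2 fold change divided by the root of F. Ratios had 0.5 added to each count. Exon lengths, GC content and shared windows came from GENCODE M21 (GRCm38), positions and upstream sequences from RefSeq GRCm38.p6, where 23204 symbols (95.0%) matched. The GC offset was a loess curve per library (span 0.75) on genes above a mean log2 CPM of 5, and GC content was known for 8200 tested genes (96.6%). Where GC content was not known, no offset was applied.

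The 10 genes and the lists were chosen with earlier results of these data known. Genes named from each list were those that passed, otherwise the 3 most abundant tested, and some genes that this rule names are not reported here. On simulated counts for 8489 genes at a dispersion of 0.1, the test recovered 36.0% of 2-fold and 99.0% of 4-fold changes with 3 false calls. The simulation gave every gene that same dispersion. It held no library like knockout replicate 4, where 43.7% of the tested genes were at 0. Its recovery therefore does not show what could be found in these libraries. Alternatives were other filters and scalings, DESeq2 1.42.0, limma 3.58.1 voom with robust moderation, a replicate block, the GC offset and leaving out libraries. Removing the 2 libraries with the fewest genes and the pattern without Tap1 were added after the data were seen. The motifs, and the letters used for each, were revised after matches in these start-site windows had been seen.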

Additional observations from a re-analysis of the deposited data

Results flagged for a closer look

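For normally distributed values, Dixon's test flags about 1 in 20 groups (5%) by chance. Of 96 groups of 4 libraries examined, 14 (14.6%) held 1 library far from the other 3 by that test. Among the class I genes these were H2-Q7 in wild-type replicate 2 (0.0361 CPM, a single count), Erap1 in knockout replicate 1 (119.8 CPM) and the log2 Tap1 to Tap2 ratio in knockout replicate 4 (−11.05). Knockout replicate 4 also stood apart for H13 (59.3 CPM) and Nfyb (604 CPM), and knockout replicate 3 for Susd6 (43.8 CPM), H2-Ab1 (262 CPM), Cd79a (8.96 CPM) and Lyz2 (25.5 CPM). In wild-type replicate 1 the class II genes Cd74 (1969 CPM), H2-Ab1 (601 CPM) and H2-Aa (283 CPM) and the dendritic cell marker Itgax (19.8 CPM) were far above the other wild-type libraries, as was Cd8a in wild-type replicate 2 (7.15 CPM). For H2-Q7, Itgax and Cd8a the other 3 wild-type libraries were at 0, so any count at all would have been flagged.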

How the results depend on the processing

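edgeR's quasi-likelihood test called 0 genes with other filters, scalings, the GC offset, the replicate block and any 1 library left out, while DESeq2 called 387, limma voom 9 and limma voom with library quality weights 4. None of the 10 class I genes was called under any of these settings. Of the class I log2 fold changes under these alternatives, 169 kept their sign and 12 did not. The fit on a replicate block gave 0 called genes. For the log2 H2-D1 to H2-K1 ratio, the differences within same-number pairs average to −1.19 again by arithmetic, so that value is no check. The exact sign-flip p over these pairs was 0.125, the smallest that 4 pairs allow. The labels do not say whether the numbers pair the libraries, and 2 of 4 correlated best with their own number. When any 1 library was left out the ratio difference ran from −1.34 to −1.01 for H2-D1 to H2-K1, from 0.61 to 1.01 for H2-K1 to B2m and from −0.46 to −0.017 for Tapbp to B2m. For Tap1 to Tap2 it ran from −3.78 to 0.43, the last without knockout replicate 4. Scaling moved the median log2 fold change over all genes from −0.12 to −0.09 (RLE), −0.20 (upper quartile) or −0.22 (library size), and limma voom gave −1.28.

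Signs turned with the GC offset for H2-D1 (0.22), H2-T23 (0.24), Tap2 (0.49), Tapbp (0.50), Pdia3 (0.26), Psmb8 (0.45), Psme2 (0.53), Wwp2 (0.81), Igtp (0.086), Ssbp3 (0.39), Mrfap1 (0.37), Nfkbib (0.36) and Cd3e (0.17). With the GC offset and the replicate block together the values were 0.073 for H2-D1, 0.16 for H2-T23, 0.19 for Tap2, 0.34 for Tapbp, 0.25 for Pdia3, 0.36 for Psmb8, 0.32 for Psme2, 0.50 for Wwp2, 0.35 for Ssbp3, 0.32 for Mrfap1, 0.34 for Nfkbib and 0.046 for Cd3e. Without knockout replicate 4, Nlrc5 was at −0.31, Cd1d1 at −0.022, Irf2 at −0.31, Mrfap1 at 0.035 and Pdia3 at 0.08. Without knockout replicates 4 and 2, the libraries with the fewest genes, Nlrc5 was at −0.81, Hspa5 at −0.012, Sppl3 at −0.48 and Pdia3 at 0.21, and without replicate 2 alone Sppl3 was at −1.08. Nlrc5 was at −0.24 with limma voom and −0.81 with quality weights. Pdia3, close to 0 throughout, was at 0.0014 with RLE scaling, 0.00024 with DESeq2, 0.013 and 0.015 with limma voom unweighted and weighted, 0.14 without wild-type replicate 2 and 0.031 without wild-type replicate 3. Tpp2 was at 0.26 with quality weights and 0.019 without wild-type replicate 4. Wwp2 was at 0.042 without wild-type replicate 4, 0.070 without knockout replicate 1 and 0.061 without knockout replicate 3. Over all settings that leave out 1 library, the range was −0.022 to 0.74 for Cd1d1, −0.17 to 0.14 for Pdia3, −0.71 to 0.019 for Tpp2, −0.31 to 1.03 for Irf2, −0.37 to 0.070 for Wwp2 and −1.08 to 2.05 for Sppl3. The cause of these turns was not tested.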
